A study of Mus musculus with 11 samples.

Results

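Gene expression in mouse embryonic stem (ES) cells was compared between a pair of serum-free media, 2i/LIF and KOSR/LIF. The arrays were picked by their titles, which gave 5 arrays of 2i/LIF and 3 of KOSR/LIF among the 11 arrays of the series. The remaining 3 arrays were of cells in serum/LIF, and their levels appear below for reference. They also entered the filter on dim probes, the choice of probe and the estimate of the spread between replicates. The cells were unsorted, of the 129/Ola background, and had spent at least 3 passages in their medium, and no other treatment is named for any group. They belonged to 3 lines that the series describes as independent clones, E14, HVJu5.1 and HVJu9.3. KOSR/LIF replicates 1, 2 and 3 are titled E14, HVJu9.3 and HVJu5.1. For 2i/LIF replicates 1 to 5 the titles give HVJu5.1, HVJu9.3, E14, HVJu5.1 and HVJu9.3, whereas the source names give E14, HVJu5.1, HVJu5.1, HVJu9.3 and HVJu9.3. The line of 2i/LIF replicates 1 to 4 is therefore unsettled. The series counts the clones of a medium as biological replicates, but whether the 2 samples of a line in 2i/LIF were separate cultures is not stated by the labels; the p-values therefore speak for the spread among these arrays, some of which may be technical.

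LIF, leukaemia inhibitory factor, is shared by both media and acts through STAT3 to keep ES cells self-renewing. The 2i medium adds an inhibitor of MEK, the kinase that activates ERK, and an inhibitor of GSK3, which phosphorylates beta-catenin and so leads to its destruction, so that differentiation signals through FGF and ERK are blocked while beta-catenin is stabilised. KOSR is a defined supplement, built on lipid-rich albumin with insulin and transferrin, that stands in for serum and contains neither inhibitor. ES cells in 2i are commonly described as naive, close to the pre-implantation epiblast, while cells in media without the inhibitors are a shifting mixture that includes cells primed for epiblast or extra-embryonic endoderm.

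Each level below is the log2 processed intensity of a probe minus the 75th percentile of its array, and each change is the level in 2i/LIF minus that in KOSR/LIF, fitted with limma over 16279 genes and given with its standard error (SE). A gene is called where its Benjamini-Hochberg adjusted p over all genes is below 0.05. The array of KOSR/LIF replicate 3 was faint: 43.7% of its probes were well above background and its 75th percentile of processed intensity was 65.3, against 53.7% to 72.6% and 176.0 to 537.6 on the other 10 arrays. Pearson's r across genes was 0.984 between KOSR/LIF replicates 1 and 2, and 0.936 and 0.931 between each of them and replicate 3. Within 2i/LIF it ran from 0.949 to 0.981, and the lowest 4 values all involved replicate 2. Slide 1, scanned on 1 day, held KOSR/LIF replicates 1 and 2 and 2i/LIF replicates 3 and 4. KOSR/LIF replicate 3 and 2i/LIF replicate 2 were scanned on another day, and 2i/LIF replicates 1 and 5 on 1 more day. The authors also deposited a table of processed values, and its columns did not all hold the arrays of the same name. Across genes, the table's columns for 2i/LIF 1 and 4 matched each other's scanner file (r = 0.997 and 0.995, against 0.971 and 0.973 with their own), as did those for KOSR/LIF 1 and 2 (r = 0.997 and 0.998, against 0.984 and 0.984). These exchanges stay within a medium and leave the comparison of media as it is, but the line of each of these 4 arrays is uncertain, and so is any block by line. The column for KOSR/LIF 3 matched no scanner file: its highest r was 0.980, with KOSR/LIF replicate 1, and it was 0.942 with the faint array, whereas the other 10 columns reached 0.993 to 0.998 with 1 file. The faint scan and the table's KOSR/LIF 3 column therefore hold different measurements under 1 name, and which of them is the labelled sample is not settled by the files. Replicate numbers below are those of the scanner files. Counts of lists are given without KOSR/LIF replicate 3 where they differ, named genes where its absence ended a call, and calls lost within slide 1 are gathered near the end. Genes that mark ES cells were present in both media: all 10 members of an identity list, Pou5f1 and Sox2 among them, were measured, and their mean level was 4.51 to 4.96 on the 2i/LIF arrays and 4.02 to 4.91 on the KOSR/LIF arrays.

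With all 8 arrays, 2388 of 16279 genes were called (14.7%), of which 969 were higher in 2i/LIF (5.95% of the genes tested) and 1419 were lower (8.72%). Here and below, serum/LIF arrays shared in the estimate of the spread. Fitted on the 8 arrays alone, 1861 genes were called, 697 higher and 1164 lower. Without KOSR/LIF replicate 3 the calls were 1958 (12.0%), with 724 higher (4.45%) and 1234 lower (7.58%). Within slide 1 they were 2071 (12.7%), with 730 higher (4.48%) and 1341 lower (8.24%). Of the 2388 genes, 1716 were called without KOSR/LIF replicate 3 as well, each in the same direction, while 672 lost the call and 242 gained one. Within slide 1, whose arrays are part of the whole, 1518 of the 2388 were called. In the authors' deposited table, with its own KOSR/LIF 3 column, 2772 genes were called (17.0%), 1072 higher (6.59%) and 1700 lower (10.4%). All 2388 genes had the same sign there, 2059 of them were called in the same direction, and 431 of the 672 genes whose call rested on the faint array were called. With that column left out, which was tried after seeing the data, 2060 were called (12.7%), 743 higher (4.56%) and 1317 lower (8.09%). Since 10 of its columns are the same arrays, the table differs from the scanner files only in the KOSR/LIF 3 column and in the authors' processing. The change was at least 2-fold for 2105 of the 2388 genes. The levels of the 2 media did not overlap between arrays for 19.6% of all genes, 9.04% being higher and 10.6% lower in 2i/LIF. The median change over all genes was 0.02, which sets the background for the gene lists below. A called gene was not well above background on any 2i/LIF array in 135 cases and on any KOSR/LIF array in 64, and its fold is then a bound, written "at least", from the brighter medium's mean against the lowest signal that counts as measured on each array of the dimmer one. The adjusted p printed beside such a bound belongs to the fitted change, which uses the dim signals as they are, and does not test the bound. The cells were measured in bulk, so fewer cells that express a gene and less RNA per cell cannot be told apart.

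**Figure D1:**
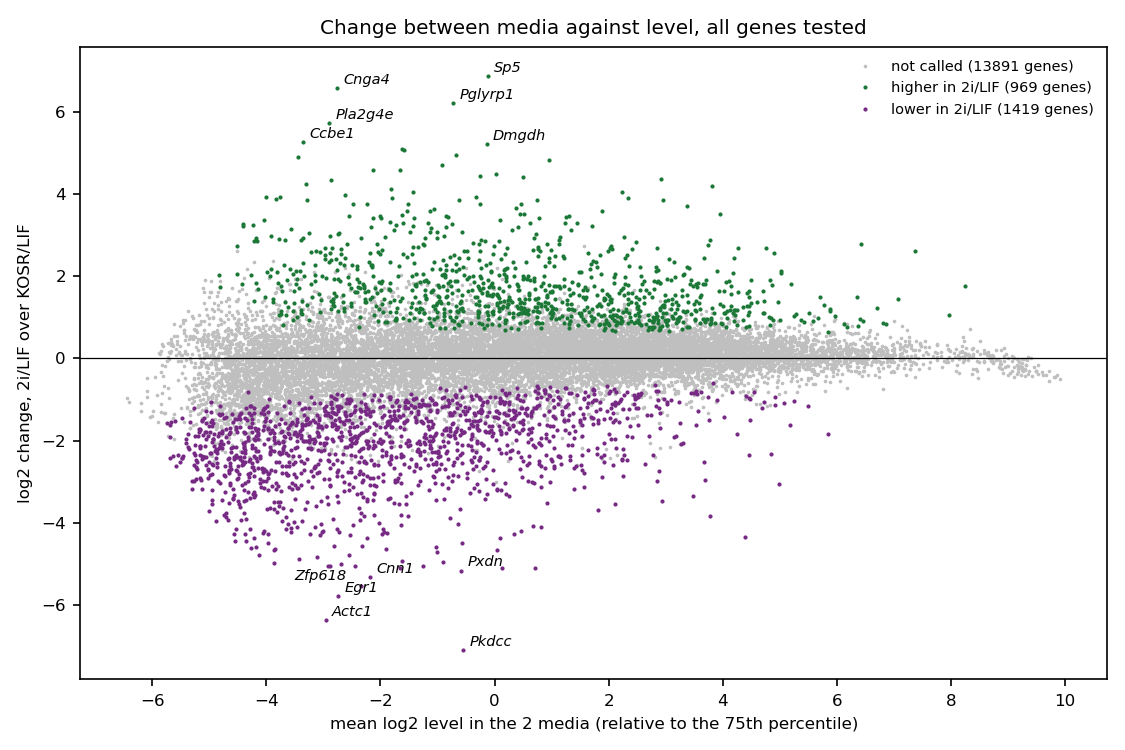
Change of each of 16279 genes (vertical axis, log2 of 2i/LIF over KOSR/LIF) against its mean log2 level in both media (horizontal axis), with the 969 genes called higher in 2i/LIF in green, the 1419 called lower in purple and all others in grey. The 6 highest and 6 lowest genes picked by the naming rule carry their symbols, from Sp5 (6.87) at the top to Pkdcc (-7.10) at the bottom.

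**Figure D2:**
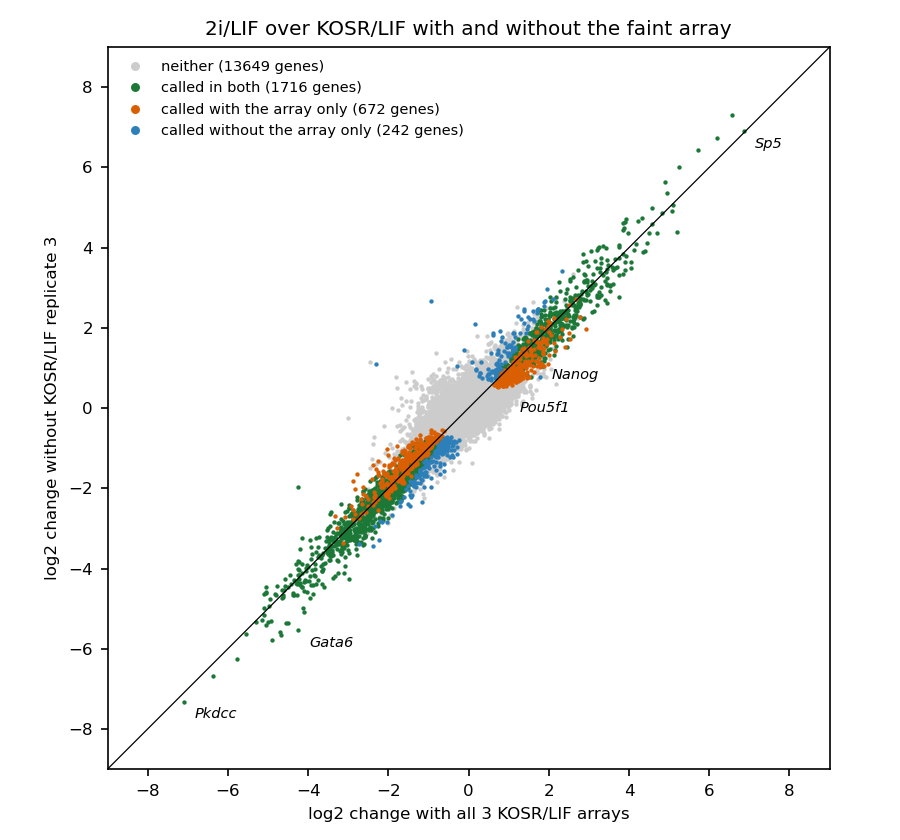
Change of each gene with all 3 KOSR/LIF arrays (horizontal axis, log2) against the change without KOSR/LIF replicate 3 (vertical axis, log2), with the diagonal drawn. Green marks the 1716 genes called both ways, orange the 672 called only with the faint array and blue the 242 called only without it; Gata6 moved from -4.24 to -5.54 and Nanog from 1.81 to 1.15.

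Many genes of the naive state were higher in 2i/LIF. Here and below, a gene said to rise or fall was called both with and without KOSR/LIF replicate 3 unless the loss is stated. Of 21 measured members of a naive pluripotency list, 12 rose and 1 fell, and the median change was 0.90. Without KOSR/LIF replicate 3 these were 9, 1 and 0.88. Spic, an ETS-family transcription factor, had levels of 3.72, 3.33, 2.28, 3.71 and 3.78 in 2i/LIF replicates 1 to 5 and of -1.74, -1.25 and -1.40 in KOSR/LIF replicates 1 to 3. The arrays did not overlap, and Spic rose (4.83 ± 0.35, adjusted p = 1.48e-05), or 28.4-fold (4.86 without replicate 3). Tfcp2l1, a transcription factor downstream of LIF that sustains self-renewal, lay at 5.48, 4.72, 5.25, 5.30 and 5.28 against 2.43, 2.59 and 1.97. Every 2i/LIF array was above every KOSR/LIF array, a change of 2.88 ± 0.25 (adjusted p = 4.11e-05). Dppa3, a maternal factor that protects DNA methylation marks in the early embryo, was at 1.68, 3.46, 2.42, 2.98 and 2.02 in 2i/LIF and 0.17, 0.34 and -1.28 in KOSR/LIF. Its lowest value was on the faint array, and its change of 2.77 ± 0.48 (adjusted p = 0.00258) was 2.26 without that array. Klf2 (1.81) and Prdm14 (1.70), regulators of the naive network, also rose with and without the faint array. Esrrb, an orphan nuclear receptor of the same network, rose (0.90 ± 0.23, adjusted p = 0.0214), but not without replicate 3 (0.80, adjusted p = 0.064); in the authors' deposited table it was called (0.81, adjusted p = 0.00484). Klf4, another of its regulators, did not pass, with 4.91, 4.11, 3.58, 4.50 and 4.69 in 2i/LIF and 4.08, 3.55 and 4.15 in KOSR/LIF (0.43 ± 0.35, adjusted p = 0.475). The 1 member that fell was Nrk, a kinase gene (-1.83 ± 0.41, adjusted p = 0.0109), whose probe was well above background on 1 of 5 and 1 of 3 arrays.

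The general pluripotency list moved in both directions: 3 of 20 members rose and 6 fell, with a median of -0.21, and without the faint array 2 rose and 5 fell. Pou5f1, which encodes the core factor Oct4, was at 6.03, 5.83, 6.25, 6.27 and 6.14 in 2i/LIF and 5.92, 5.65 and 3.69 in KOSR/LIF. Only the faint array was low, and the change of 1.02 ± 0.41 did not pass (adjusted p = 0.135). It was 0.32 without that array (adjusted p = 0.379) and 0.25 in the authors' deposited table (adjusted p = 0.223). Sox2, its partner, was at 3.54, 3.19, 3.46, 3.56 and 3.35 against 2.90, 2.79 and 2.17. These arrays did not overlap, yet the call (0.80 ± 0.23, adjusted p = 0.0334) was lost without replicate 3 (0.58, adjusted p = 0.0986) and in the authors' deposited table (0.18, adjusted p = 0.652). Nanog, a homeobox gene that stabilises the naive state, was at 4.29, 4.21, 4.33, 4.22 and 4.63 against 2.93, 3.45 and 1.21. It rose (1.81 ± 0.41, adjusted p = 0.0113), and by 1.15 without the faint array, on which it was lowest; a second, dimmer Nanog probe changed by -2.22 ± 1.73 (adjusted p = 0.457). Fgf4, the ligand that ES cells make for their own FGF receptors, rose (1.08 ± 0.23, adjusted p = 0.00714). Among the members that fell were Utf1, a chromatin factor (-3.05 ± 0.46), Lin28a, an RNA-binding inhibitor of let-7 maturation (-2.52 ± 0.54), and Dnmt3l, the cofactor of the de novo DNA methyltransferases (-3.84 ± 0.63).

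Most formative and primed epiblast genes, which switch on as cells leave the naive state, were lower in 2i/LIF: 15 of 22 measured members fell and 2 rose, with a median of -2.04 (11, 1 and -1.89 without replicate 3). Fgf5, an FGF ligand that marks the epiblast after implantation, gave -5.90, -6.07, -4.99, -6.49 and -8.34 in 2i/LIF, where no array was well above background, and -2.93, -3.33 and -0.37 in KOSR/LIF. It was at least 5.99-fold lower (adjusted p = 0.00318), a bound that came to 3.16-fold without replicate 3, the array on which it was highest. Pou3f1, a POU factor of the primed epiblast, was at -0.79, -1.23, -0.80, -1.55 and -0.41 against 1.84, 1.32 and 2.60. The media did not overlap and Pou3f1 fell (-2.88 ± 0.32, adjusted p = 0.000167). Enpp3, an ectonucleotidase (-3.35 ± 0.53), and Fgf15, an FGF ligand of the early neural plate (-3.19 ± 0.42), fell as well. Otx2, a head organiser transcription factor, and Lef1, a beta-catenin partner, were called with the faint array (-2.34 and -2.89) and not without it (adjusted p = 0.0745 and 0.15). The largest rise in the list was Foxd3, a forkhead factor of the epiblast (1.25 ± 0.35, adjusted p = 0.0339), and it too was lost without replicate 3 (adjusted p = 0.083). Etv5, the other member that rose (0.79, adjusted p = 0.0384), kept its call without replicate 3 (adjusted p = 0.0418).

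**Figure D3:**
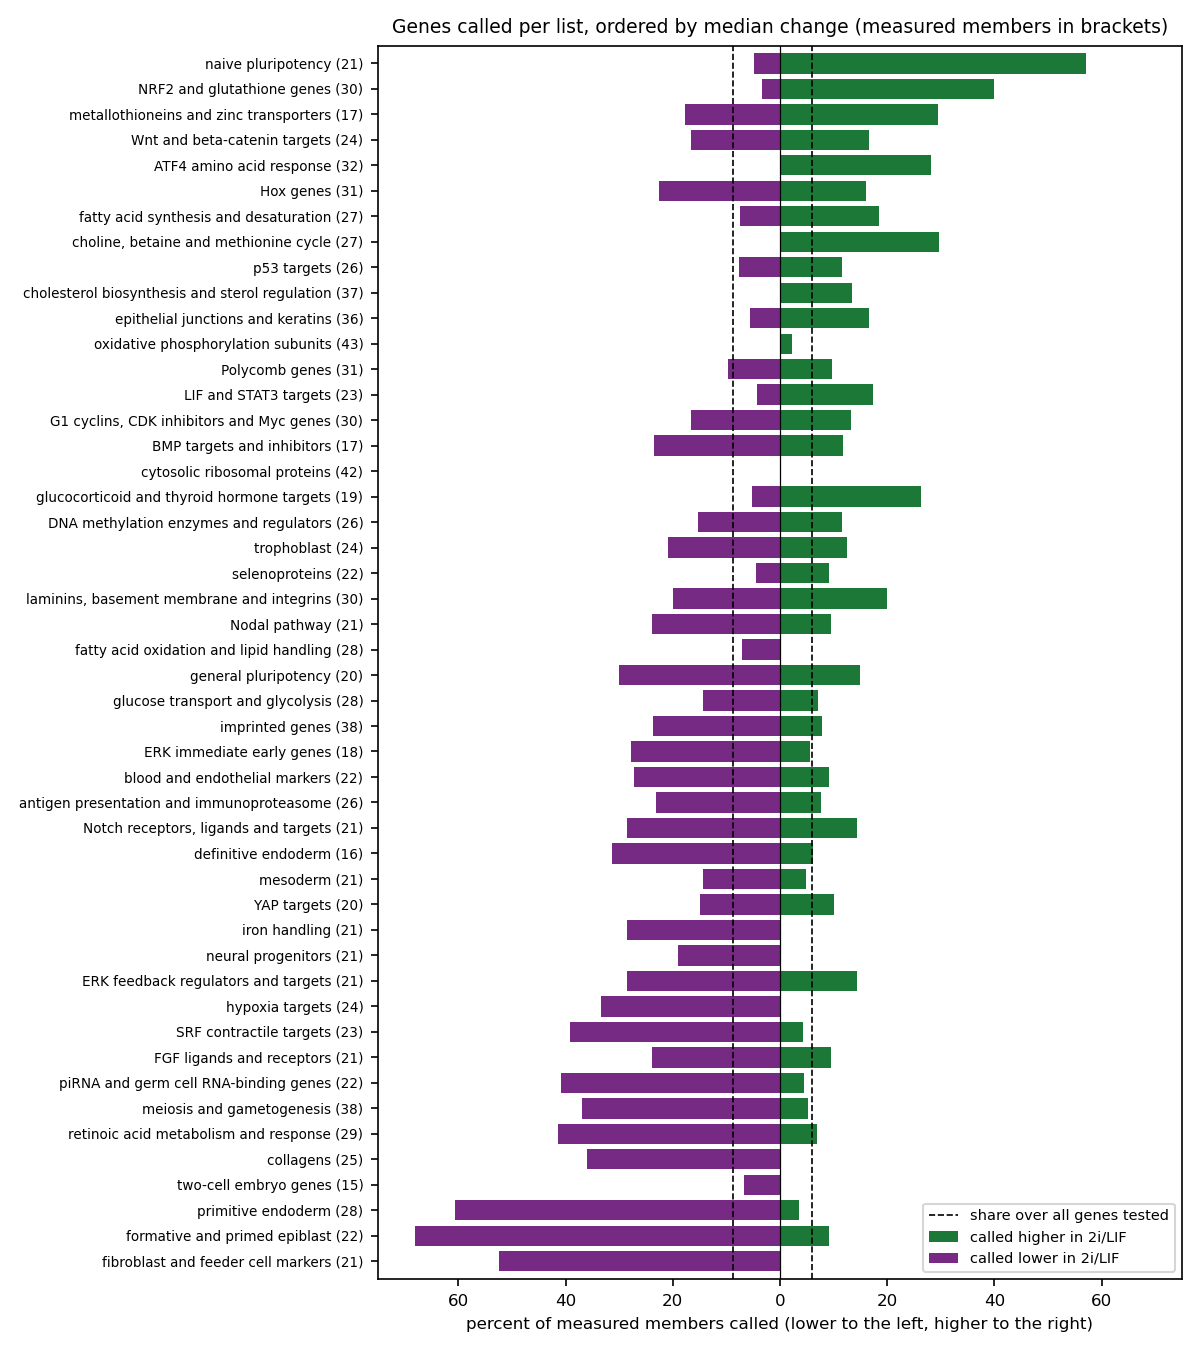
Percent of the measured members of each of 48 gene lists called higher (green, right) and lower (purple, left) in 2i/LIF, ordered by median change, with dashed lines at the shares of all 16279 genes tested (5.95% higher, 8.72% lower). The naive pluripotency list (12 of 21 higher) heads the plot, and the fibroblast (11 of 21 lower), formative (15 of 22 lower) and primitive endoderm (17 of 28 lower) lists stand at its foot.

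Some targets of ERK, the kinase below MEK, fell. Among 18 immediate early genes 5 fell and 1 rose (median -0.25), and among 21 feedback regulators and later targets 6 fell and 3 rose (median -0.54), with the same counts without KOSR/LIF replicate 3. Egr1, an immediate early zinc finger factor, was at -4.93, -5.74, -6.38, -6.20 and -4.89 in 2i/LIF, where 1 of 5 arrays was well above background, and at 1.24, -0.01 and -0.78 in KOSR/LIF. The gap between the media was over 4 log2 units on every pair of arrays, and Egr1 fell (-5.78 ± 0.47, adjusted p = 2.66e-05), with a change of -4.69 once dim signals are raised to the lowest measured signal of their array. Dusp6, the cytoplasmic ERK phosphatase that ERK itself induces, was at 0.37, 0.10, 1.00, 0.28 and -0.01 against 3.98, 3.72 and 3.91. The values were tight in both media, and Dusp6 was 11.5-fold lower (-3.53 ± 0.25, adjusted p = 1.45e-05). Dusp4, a nuclear phosphatase of ERK, was at -3.95, -1.35, -3.73, -5.18 and -3.00 against 0.73, 0.77 and -0.32. It fell (-3.84 ± 0.66, adjusted p = 0.00231); within the second scan day, 2i/LIF replicate 2 lay -1.03 from KOSR/LIF replicate 3, against -5.21 within slide 1. Spry4, a Sprouty inhibitor of receptor tyrosine kinase signalling, was not well above background on any 2i/LIF array and was at least 4.27-fold lower (adjusted p = 7.2e-05). The growth regulator Myc (-2.31 ± 0.55, adjusted p = 0.0153) and Phlda1 (-2.15 ± 0.43, adjusted p = 0.00567) fell as well. In the other direction, Nr4a1, an orphan nuclear receptor counted among the immediate early genes, rose (1.00 ± 0.23, adjusted p = 0.0112), as did the ephrin receptor gene Epha4 (1.95 ± 0.33, adjusted p = 0.00231). The other feedback list members that rose were Ccnd1, cyclin D1 (1.41, adjusted p = 0.00777), and Etv5 (0.79, adjusted p = 0.0384). Of 21 FGF ligands and receptors 5 fell and 2 rose, among them Fgf1 (-3.43 ± 0.50), the receptor gene Fgfr3 (-2.59 ± 0.27) and, upward, Fgf3 (2.15 ± 0.32).

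Contractile genes driven by serum response factor (SRF), which reads the state of the actin cytoskeleton, made up some of the largest differences. Of 23 measured members 9 fell and 1 rose (median -0.64), and 10 fell without KOSR/LIF replicate 3. SRF binds a short A/T-rich element, the CArG box. It was found on either strand within 250 bases upstream of the start of 9 of the 20 members with a window in RefSeq's promoter table (build GRCm38.p6). Of all 32851 windows, 1.47% held it. The list was made up of SRF targets, so its share is no test and says nothing of the change between media. Windows of 3 members that fell are shown because they hold the element, with the CArG box in capitals: Actc1 (chr2:114052876-114053125, minus strand), Acta1 (chr8:123894776-123895025, minus strand) and Myl9 (chr2:156775214-156775463, plus strand).
Actc1: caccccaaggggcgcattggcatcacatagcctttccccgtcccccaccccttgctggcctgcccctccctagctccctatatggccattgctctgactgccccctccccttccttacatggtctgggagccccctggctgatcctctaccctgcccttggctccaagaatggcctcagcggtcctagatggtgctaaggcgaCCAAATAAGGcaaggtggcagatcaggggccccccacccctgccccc
Acta1: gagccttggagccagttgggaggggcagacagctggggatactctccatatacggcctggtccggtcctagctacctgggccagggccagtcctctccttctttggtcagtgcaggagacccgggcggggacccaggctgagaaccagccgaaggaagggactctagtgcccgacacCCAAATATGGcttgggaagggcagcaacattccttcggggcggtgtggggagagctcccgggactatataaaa
Myl9: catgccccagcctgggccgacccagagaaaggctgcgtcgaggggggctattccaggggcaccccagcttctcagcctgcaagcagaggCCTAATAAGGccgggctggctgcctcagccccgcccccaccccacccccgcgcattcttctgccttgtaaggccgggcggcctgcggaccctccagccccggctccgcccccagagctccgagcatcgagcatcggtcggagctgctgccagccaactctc

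The box starts -47, -73 and -161 bases from the start of Actc1, Acta1 and Myl9, and 4 of the 8 members that fell and had a window held one. The windows of Cnn1 and Acta2 held none, which says only that these letters are not in that stretch. Actc1, cardiac actin, was at -6.82, -2.87, -6.59, -6.30 and -8.12 in 2i/LIF and 0.25, 0.84 and -0.41 in KOSR/LIF. Replicate 2 was the only 2i/LIF array well above background and lay between the other 4 and KOSR/LIF; the fitted change was -6.37 ± 1.00 (adjusted p = 0.0013). Cnn1, calponin of smooth muscle, was at -4.73, -2.79, -5.65, -5.21 and -5.80 against 0.24, 0.77 and 0.41. Again replicate 2 was the highest of 2i/LIF, and Cnn1 fell (-5.31 ± 0.59, adjusted p = 0.000159). Myl9, a myosin light chain (-4.66 ± 0.37, adjusted p = 2.27e-05), and Acta1, skeletal actin (-4.06 ± 0.55, adjusted p = 0.000526), fell too. Acta2, smooth muscle actin, was at -3.07, 0.05, -3.40, -3.09 and -2.56 against 2.30, 2.85 and 2.92, a change of -5.11 ± 0.78 (adjusted p = 0.00108), and the value of -2.87 between the 2 arrays of the second scan day was smaller than the -5.82 within slide 1. Actin genes are near-identical in coding sequence, so their probes may share signal. Csrp1, a LIM protein of the actin cytoskeleton, was the member that rose (1.37 ± 0.28, adjusted p = 0.00691). Of 20 members of a list for YAP, the coactivator controlled by cell contact and tension, 3 fell and 2 rose (3 and 1 without replicate 3). Besides targets, the list holds partners and relatives of YAP, and both members that rose were of these, Tead4 (1.59 ± 0.35) among them. Tead2, a partner as well, fell (-1.08 ± 0.21). Thbs1, the matrix protein thrombospondin 1, showed a level at least 6.74-fold lower (adjusted p = 0.000499) and Ankrd1, a nuclear ankyrin repeat protein, at least 3.7-fold lower (adjusted p = 0.00215), and neither was well above background on any 2i/LIF array.

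**Figure D4:**
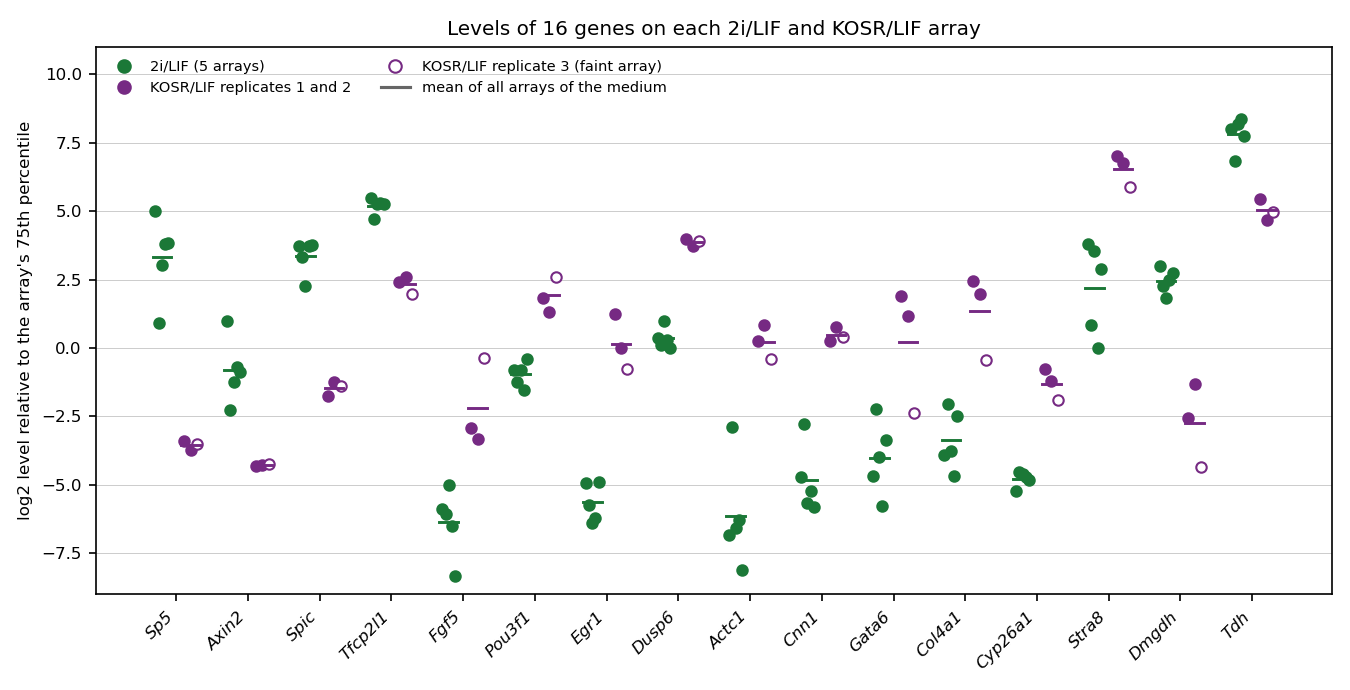
Log2 level relative to the array's 75th percentile (vertical axis) of 16 genes on each 2i/LIF array (green) and KOSR/LIF array (purple, the faint replicate 3 as an open circle), with bars at the means of all arrays of a medium. The 2i/LIF and KOSR/LIF arrays do not overlap for Sp5, Spic, Dusp6, Cnn1, Cyp26a1 or Tdh, whereas for Gata6 the faint array lies at -2.36, among the 2i/LIF values.

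A list of Wnt and beta-catenin genes moved both ways. Besides targets of beta-catenin it holds ligands and receptors of the pathway, which were among the members that fell. Of 24 measured members 4 rose and 4 fell, with a median of 0.45 (3 and 3, median 0.70, without the faint array). Sp5, a zinc finger factor that is a direct target of beta-catenin, showed the largest rise of any gene named by the rule. Its levels were 5.02, 0.93, 3.04, 3.79 and 3.83 in 2i/LIF and -3.41, -3.74 and -3.51 in KOSR/LIF. All 5 values were far above all 3, with replicate 2 the lowest of 2i/LIF, and Sp5 rose (6.87 ± 0.75, adjusted p = 0.000146), or 117-fold. The 3 serum/LIF arrays lay at 1.56, -0.52 and 0.59, all above KOSR/LIF, and replicate 1 of them was above 2i/LIF replicate 2. Axin2, the scaffold of the complex that degrades beta-catenin and a feedback target, was at 0.97, -2.25, -1.25, -0.68 and -0.87 against -4.32, -4.26 and -4.22. Only 1 of 3 KOSR/LIF arrays was well above background for Axin2, which rose (3.45 ± 0.64, adjusted p = 0.00366). Of its 2 probes, 1 was called. The letters CTTTGAT, a core recognition sequence of the TCF factors that carry beta-catenin, were found once in the 250 bases upstream of Sp5 (chr2:70474673-70474922, plus strand, -104 to -98 from the start) and are in capitals below. On either strand the letters were in 3.21% of all windows and in 1 of the 17 list members with a window.
Sp5: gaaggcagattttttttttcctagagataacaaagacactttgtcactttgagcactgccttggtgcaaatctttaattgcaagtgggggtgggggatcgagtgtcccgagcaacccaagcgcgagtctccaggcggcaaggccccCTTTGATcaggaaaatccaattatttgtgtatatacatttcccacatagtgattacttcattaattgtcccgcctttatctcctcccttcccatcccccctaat

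The members that fell included Ccnd2, cyclin D2 (-3.01 ± 0.38), and Lef1. Tnfrsf19, a receptor of the TNF family, rose with the faint array (1.27 ± 0.36, adjusted p = 0.0331) and missed the threshold without it (adjusted p = 0.0566). Among 17 BMP targets and inhibitors 2 rose and 4 fell (2 and 2 without replicate 3). Id4, an inhibitor of helix-loop-helix factors, rose (3.75 ± 0.49, adjusted p = 0.000435) while its relative Id2 fell with the faint array only (-1.99 ± 0.47, adjusted p = 0.0139; adjusted p = 0.0631 without it). Hand1, a factor of trophoblast and mesoderm, was at least 9.55-fold lower (adjusted p = 0.000494), with a bound of 19-fold without replicate 3, and Dusp9, a phosphatase that BMP induces, fell (-2.60 ± 0.73, adjusted p = 0.0335). In the Nodal list 5 of 21 fell and 2 rose (3 and 2 without replicate 3). Cfc1, a co-receptor of Nodal, was not well above background on any KOSR/LIF array and was at least 2.78-fold higher in 2i/LIF (adjusted p = 0.0183). Of 23 members of a LIF and STAT3 list 4 rose and 1 fell. Besides targets, the list holds receptors and kinases, and Il6ra and Jak3 are of these. Il6ra, the interleukin 6 receptor (2.93 ± 0.40, adjusted p = 0.000547), and Jak3, a Janus kinase (1.54 ± 0.22, adjusted p = 0.00074), rose, and Cish, an inhibitor of cytokine receptors that STAT factors induce, fell (-1.17 ± 0.22, adjusted p = 0.0042).

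The primitive endoderm, the extra-embryonic layer that forms next to the epiblast, is marked by genes that were mostly lower in 2i/LIF. Of 28 measured members 17 fell and 1 rose, and the median was -1.94. Without KOSR/LIF replicate 3 the counts were the same and the median was -2.28. The mean level of the list was -1.72 to -1.13 on the 2i/LIF arrays, 1.19 and 0.71 on KOSR/LIF replicates 1 and 2, and -0.51 on replicate 3. Gata6, the transcription factor that starts the lineage, was at -4.66, -2.24, -3.99, -5.77 and -3.37 in 2i/LIF and 1.90, 1.17 and -2.36 in KOSR/LIF. KOSR/LIF replicates 1 and 2 were far above all others, but replicate 3 lay within the range of 2i/LIF. Gata6 fell (-4.24 ± 0.98, adjusted p = 0.0127), the change without replicate 3 was -5.54 (adjusted p = 0.00225), and the 2 arrays of the second scan day differed by 0.12. Its call was lost without KOSR/LIF replicate 1, where the change was -3.41 (adjusted p = 0.0623), and without replicate 2, where it was -3.77 (adjusted p = 0.0561). In the authors' deposited table, where the KOSR/LIF 3 column is another measurement, Gata6 changed by -4.03 (adjusted p = 0.00105). Gata4, which acts after Gata6, was at -2.24, -2.28, -2.80, -2.78 and -2.79 against 0.35, -0.63 and -1.04. These did not overlap, and Gata4 fell (-2.14 ± 0.34, adjusted p = 0.00136). Sox17, a SRY-box factor of endoderm, fell (-1.69 ± 0.47, adjusted p = 0.0328), and its relative Sox7, which no 2i/LIF array measured, was at least 4.81-fold lower (adjusted p = 0.00137). Pdgfra, the receptor used to sort this lineage, fell (-2.98 ± 0.84, adjusted p = 0.0334), and changed by -4.26 without the faint array, on which its level (-4.33) was like that of 2i/LIF (-5.28 to -4.29). In the authors' deposited table Pdgfra changed by -2.62 (adjusted p = 0.00106). Genes of endocytosis, by which this layer takes up nutrients, fell too. Dab2, an adaptor of endocytosis, was at -6.96, -5.91, -6.60, -6.41 and -3.48 against 0.56, -0.72 and -2.80 (-4.89 ± 0.83, adjusted p = 0.00221). Replicate 5 was the only 2i/LIF array above background for Dab2. Lrp2, megalin, was at -0.58, -1.37, -1.63, -2.41 and -0.20 against 3.31, 2.89 and 2.38. All 3 KOSR/LIF arrays were well above all 5 of 2i/LIF (-4.10 ± 0.47, adjusted p = 0.000183). Cubn, cubilin, fell (-4.56 ± 0.74, adjusted p = 0.00166). Hhex, a homeobox gene of anterior endoderm, did not pass (0.40 ± 0.43, adjusted p = 0.605) and was at -0.08 without replicate 3. The member that rose was Tspan1, a tetraspanin (2.93 ± 0.52, adjusted p = 0.00291).

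Collagen IV, the network of the basement membrane, was lower as well. Col4a1, a chain of collagen IV, was at -3.92, -2.03, -3.75, -4.69 and -2.47 against 2.45, 1.99 and -0.42. The faint array was the lowest of KOSR/LIF and still above all 2i/LIF arrays, and Col4a1 fell (-4.71 ± 0.69, adjusted p = 0.000877), with a change of -5.59 without replicate 3 and of -6.44 within slide 1. Col4a2, the chain that pairs with it, fell (-4.02 ± 0.45, adjusted p = 0.000176). The 2 genes start 21 bases apart on opposite strands of chromosome 8, Col4a1 at base 11312826 and Col4a2, on the plus strand, at base 11312805. By these starts, a single annotated one for each gene, they overlap head to head, and the stretches upstream of the starts lie on opposite sides. Other starts of the genes were not looked at, so whether they share a promoter was not tested. Pxdn, peroxidasin, which crosslinks collagen IV, was at -3.85, -2.56, -3.08, -3.77 and -2.55 against 1.98, 2.28 and 1.73 and was among the 6 lowest genes by the naming rule (-5.16 ± 0.34, adjusted p = 1.28e-05). Of 25 measured collagens 9 fell and none rose (median -1.06, or -1.31 without the faint array, where 9 fell), among them Col1a2 (-4.38 ± 0.39, adjusted p = 4.76e-05). Laminins, other basement membrane genes and integrins moved both ways: 6 of 30 rose and 6 fell, and 2 and 8 without replicate 3. Nid1, nidogen, which links laminin to collagen IV, was at 5.24, 5.1, 4.59, 5.07 and 5.54 in 2i/LIF and 2.51, 2.66 and 1.91 in KOSR/LIF, opposite to the collagen IV chains. It rose (2.75 ± 0.27, adjusted p = 7.44e-05). Itga9, an integrin subunit, fell (-3.55 ± 0.34, adjusted p = 7.43e-05).

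**Figure D5:**
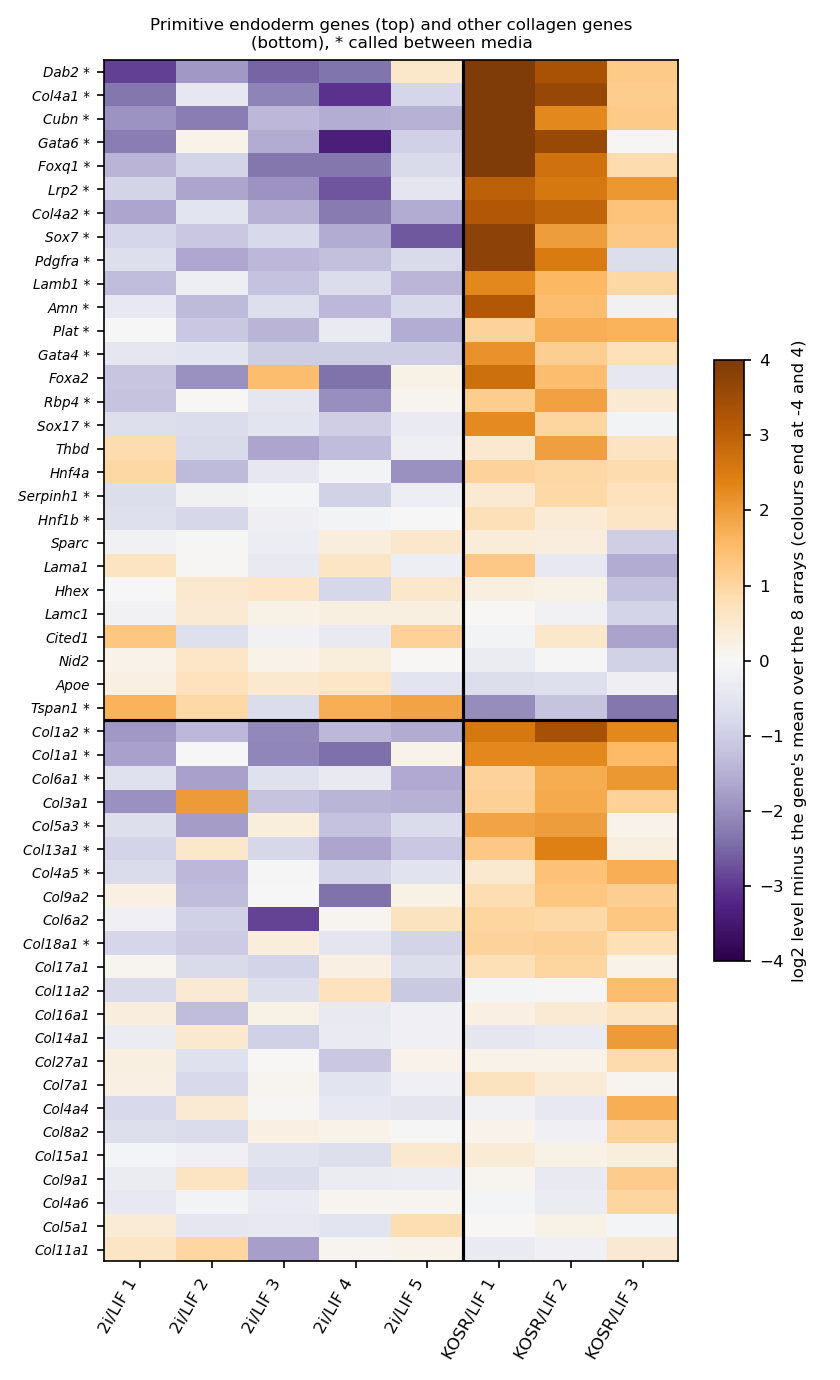
Level of each measured primitive endoderm gene (top) and of the other collagen genes (bottom) on the 5 arrays of 2i/LIF and the 3 of KOSR/LIF, as log2 difference from the gene's mean over the 8 arrays (purple lower, orange higher), genes ordered by change and marked with * where called. Dab2, Col4a1, Cubn and Gata6 at the top are orange on KOSR/LIF replicates 1 and 2 and paler on the faint replicate 3, and Tspan1 alone of the called genes runs the other way.

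Markers of fibroblasts, which serve as feeders in many ES cell cultures and also make collagens and contractile proteins, were lower in 2i/LIF, for the larger share of the list. Of 21 measured markers 11 fell and none rose (median -2.11; 11 and -2.26 without the faint array), and their mean level ran from -2.50 to -1.96 on 2i/LIF arrays, -0.67 to -0.29 on KOSR/LIF arrays and -0.90 to 0.13 on serum/LIF arrays. No 2i/LIF array measured 1 of these markers and no KOSR/LIF array measured 1. Dcn, decorin, a defining gene of fibroblasts, was not well above background on any 2i/LIF array, was at -2.26, -2.62 and -1.83 in KOSR/LIF and was at least 5.75-fold lower (adjusted p = 0.00211). Other defining markers did not pass: Thy1 changed by 0.13, Lum by 0.37 and Vim by -0.05. This list shares members with the collagen and primitive endoderm lists, and the part of other cells in the contractile, collagen and endoderm results was not tested. No use of feeders is named in the labels.

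Other embryonic lineages showed fewer calls. Of 24 trophoblast genes 3 rose and 5 fell (3 and 6 without replicate 3). Tfap2a, an AP-2 factor, was at 0.22, 0.33, -0.21, 1.22 and 0.42 in 2i/LIF and -2.66, -2.52 and -2.83 in KOSR/LIF (3.07 ± 0.30, adjusted p = 7.43e-05). These arrays did not overlap. Also in this list, Esx1, an X-linked placental homeobox gene (-2.79 ± 0.65), and Sct, secretin (-2.26 ± 0.31), fell. Cdx2, the regulator of trophectoderm, did not pass (1.35 ± 1.07, adjusted p = 0.467) and ranged over -5.96 to 0.09 among the 2i/LIF arrays. In neural progenitors 4 of 21 fell and none rose (3 without the faint array), among them the neural tube transcription factors Sox11 (-3.93 ± 0.46, adjusted p = 0.00021) and Pax6 (-3.50 ± 0.42, adjusted p = 0.000277). The list's median of -0.5 was -0.05 without the faint array and -0.02 within slide 1, where 4 fell and 1 rose. Its mean level was -2.42 to -2.16 on the 2i/LIF arrays, -2.17 and -1.86 on KOSR/LIF replicates 1 and 2, and -0.87 on replicate 3. The lower median therefore rested on the faint array, whereas the calls of Sox11 and Pax6 did not. Definitive endoderm genes fell in 5 of 16 cases and 1 rose (6 and 1 without the faint array). Spink1, a trypsin inhibitor, was at -4.29, -4.56, -3.70, -4.03 and -3.98 against 1.51, -2.11 and 1.04 (-4.26 ± 0.73, adjusted p = 0.00231), and Foxa1, a pioneer factor of gut endoderm, fell (-4.23 ± 0.97, adjusted p = 0.0123). Gsc, goosecoid, a homeobox gene of the gastrula organiser, went up, from -4.19, -2.91 and -2.82 in KOSR/LIF to -0.04, 0.11, -0.77, -0.75 and 0.46 in 2i/LIF. No array of KOSR/LIF reached the lowest of 2i/LIF (3.11 ± 0.41, adjusted p = 0.000487), and the serum/LIF arrays lay at -4.41, -3.39 and -3.39. Blood and endothelial genes gave 6 lower and 2 higher of 22 (5 and 2 without replicate 3), with Esam, an endothelial adhesion molecule (-3.43 ± 0.53), and Runx1, a factor of blood formation (-3.00 ± 0.51), lower and Nfe2, an erythroid factor (3.19 ± 0.60), higher. Epithelial junction genes rose in 6 of 36 cases and fell in 2 (6 and 4 without replicate 3). Cdh1, E-cadherin, the main adhesion molecule of ES cells, was at 4.68, 4.63, 4.05, 4.58 and 4.03 against 2.56, 2.69 and 2.21. It was 3.76-fold higher in 2i/LIF (1.91 ± 0.23, adjusted p = 0.000284), and the tight junction genes Cldn3 (2.01 ± 0.27, adjusted p = 0.000494) and Cldn4 (2.46 ± 0.56, adjusted p = 0.0117) rose with it. The mesoderm list had 1 member higher, Gsc, and 3 lower of 21, among them Meox1, a homeobox gene of the somites (-3.21).

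Many germ cell genes were lower in 2i/LIF. Among 22 genes of the piRNA pathway, which silences transposons in the germ line, 9 fell and 1 rose (median -0.70; 8 and 2 without replicate 3). Mael, maelstrom, was at -1.67, -1.16, -1.51, -1.68 and -0.82 in 2i/LIF and 3.22, 2.60 and 2.29 in KOSR/LIF. The media were at least 3 log2 units apart on every pair of arrays, and Mael fell (-4.07 ± 0.32, adjusted p = 2.19e-05). Piwil2, which binds piRNAs (-3.07 ± 0.27, adjusted p = 4.79e-05), Ddx4, the germ cell helicase Vasa (-2.62 ± 0.30, adjusted p = 0.000183), and Tdrd5, a tudor protein (-3.49 ± 0.42, adjusted p = 0.000252), fell. Tdrd12, another tudor protein of the pathway, rose instead (3.20 ± 0.41, adjusted p = 0.000406). Of 38 meiosis and gametogenesis genes 14 fell and 2 rose (13 and 2 without the faint array). Stra8, the retinoic acid target that gates entry into meiosis, was at 3.79, 0.84, 3.53, 0.00 and 2.89 against 7.01, 6.75 and 5.90. The 2i/LIF arrays spread widely, with replicates 2 and 4 lowest, and all were below KOSR/LIF (-4.34 ± 1.06, adjusted p = 0.017). In serum/LIF it was at -1.35, -0.46 and 3.19. Syce3, a component of the synaptonemal complex, fell (-3.20 ± 0.30, adjusted p = 5.53e-05), and Magea4, a cancer-testis gene, rose (2.28 ± 0.49, adjusted p = 0.00852). Of 15 measured two-cell embryo genes, which mark a rare fluctuating state of ES cells, only Rbm44, an RNA-binding gene, fell (-2.14). The list's median was -1.62, several of its genes belong to near-identical families, and its mean level ran from -1.74 to 0.83 among the 2i/LIF arrays.

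Many genes of retinoic acid, the vitamin A derivative that drives ES cells to differentiate, were lower in 2i/LIF: 12 of 29 measured members fell and 2 rose, with a median of -1.06 (11, 2 and -1.10 without replicate 3). Within slide 1, 7 fell and 2 rose. Its receptors bind direct repeats spaced by 5 bases. A direct repeat of the letters GTTCA with 6 bases between the copies, which is 1 form of it, was searched on both strands. It occurred in 0.067% of all upstream windows and in 2 of the 19 members with a window. The list is of retinoic acid genes and the windows were chosen after values were seen, so these shares are no test. The 2 members were Cyp26a1 (chr19:37697558-37697807, plus strand, -32 to -17) and Rarb (chr14:16575477-16575726, minus strand, -52 to -37). Both fell, and their windows are printed with the repeat in capitals, on the reverse strand for Cyp26a1.
Cyp26a1: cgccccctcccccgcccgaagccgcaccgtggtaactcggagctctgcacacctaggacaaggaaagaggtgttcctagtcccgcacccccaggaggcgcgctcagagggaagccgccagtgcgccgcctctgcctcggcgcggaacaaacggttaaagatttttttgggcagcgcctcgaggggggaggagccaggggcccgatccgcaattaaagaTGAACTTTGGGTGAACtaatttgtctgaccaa
Rarb: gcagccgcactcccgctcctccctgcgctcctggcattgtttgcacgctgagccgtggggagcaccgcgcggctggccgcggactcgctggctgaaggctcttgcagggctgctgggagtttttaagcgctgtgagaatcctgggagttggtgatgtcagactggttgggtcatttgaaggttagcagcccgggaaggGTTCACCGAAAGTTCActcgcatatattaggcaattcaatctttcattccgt

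Cyp26a1, the hydroxylase that clears retinoic acid and is induced by it, was at -5.22, -4.52, -4.60, -4.71 and -4.82 in 2i/LIF, where 1 of 5 arrays was well above background, and at -0.77, -1.22 and -1.91 in KOSR/LIF. It fell (-3.47 ± 0.30, adjusted p = 3.74e-05), with a change of -3.15 where dim signals are raised as above. Rarb, a retinoic acid receptor that is its own target, was at -2.44, -6.12, -3.33, -5.66 and -2.73 against -1.10, -1.05 and -0.13. The media did not overlap, but the spread of 2i/LIF was wide and the call (-3.29 ± 0.87, adjusted p = 0.0246) was lost without replicate 3 (adjusted p = 0.0955). Stra6, the membrane receptor for vitamin A carried by retinol-binding protein, was at -4.88, -5.46, -3.39, -4.81 and -4.93 against -1.48, -1.47 and -0.49 (-3.54 ± 0.49, adjusted p = 0.000634), and -5.79, -4.95 and -4.00 in serum/LIF. Among the aldehyde dehydrogenase genes of the list, Aldh1a7 lay at least 3.07-fold lower (adjusted p = 0.000877) in 2i/LIF. Of those that make retinoic acid, Aldh1a2 rose (1.20, adjusted p = 0.0251) and Aldh1a3 lay at least 2.01-fold higher (adjusted p = 0.00936). Hox genes, which pattern the body axis and respond to retinoic acid in part, moved both ways. Of 31 measured genes 7 fell, all of the Hoxa and Hoxb clusters, and 5 rose, all of Hoxc; without the faint array 3 fell and 5 rose. The 3 Hoxa calls were among those lost (Hoxa2, adjusted p = 0.0577; Hoxa3, 0.109; Hoxa4, 0.0543), so that the genes still called lower were of Hoxb. Hoxb2 was at -4.56, -5.59, -6.72, -6.28 and -4.48 in 2i/LIF, with 1 of 5 arrays well above background, and -1.36, -0.41 and -0.34 in KOSR/LIF (-4.82 ± 0.54, adjusted p = 0.000162). Its serum/LIF levels, -4.61, -5.90 and -4.86, were as low as those of 2i/LIF. Hoxb5 lay at least 5.53-fold lower (adjusted p = 0.00029), and Hoxb8 (-2.82 ± 0.65, adjusted p = 0.0126) was lost without replicate 3 (adjusted p = 0.0513). Hoxc13 was at 0.23, 1.04, 0.62, 0.34 and 0.82 against -2.52, -1.96 and -2.62 and rose (2.98 ± 0.34, adjusted p = 0.000178). The list's median of 0.44 turned to -0.59 within slide 1.

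Imprinted genes, expressed from 1 parental allele, fell in 9 of 38 cases and rose in 3 (10 and 2 without replicate 3). Peg10, a retrotransposon-derived placental gene, was at -6.63, -3.75, -5.87, -5.75 and -5.02 in 2i/LIF and -0.61, -1.01 and 0.52 in KOSR/LIF (-5.04 ± 0.57, adjusted p = 0.000183), with 1 of 5 2i/LIF arrays well above background. Dlk1, a Notch-like ligand (-3.88 ± 0.71, adjusted p = 0.00337), and Nnat, neuronatin (-3.27 ± 0.60, adjusted p = 0.00339), also fell. Plagl1, a zinc finger factor, was at 4.77, 5.52, 4.95, 3.98 and 6.30 against 1.06, 1.36 and -0.16. It was 20.4-fold higher in 2i/LIF (4.35 ± 0.50, adjusted p = 0.000185). Of its 4 probes 2 were called higher, while another changed by -0.07 ± 0.58 (adjusted p = 0.958). In the DNA methylation list 3 of 26 rose and 4 fell (2 and 4 without replicate 3). Dnmt3l was at 2.54, -0.43, 2.63, 2.50 and 2.05 against 6.43, 5.29 and 5.38; all 2i/LIF arrays were lower, replicate 2 most. Dnmt3a fell (-1.32 ± 0.32, adjusted p = 0.0161) and Dnmt3b, the other de novo methyltransferase gene, did not pass (-0.67 ± 0.48, adjusted p = 0.412). Gadd45a (-2.62 ± 0.29, adjusted p = 0.000157) and Gadd45g (-2.79 ± 0.56, adjusted p = 0.00603), stress-induced genes linked to demethylation, fell. Polycomb genes, which silence developmental genes through histone marks, gave 3 higher and 3 lower of 31 (2 and 3 without replicate 3). The share called was 19.4%, against 14.7% of all genes, and 16.1% against 12.0% without replicate 3, so the list was near the background. Those that rose included the chromobox genes Cbx6 (0.71) and Cbx8 (1.92, lost without replicate 3 with an adjusted p of 0.113), and Jarid2 (-0.95), Phf19 (-2.43) and Pcgf5 (-1.50) fell. In antigen presentation 2 of 26 rose and 6 fell (3 and 9 without replicate 3): the immunoproteasome subunit Psmb8 (-3.66 ± 0.45), H2-M3, a non-classical class I molecule (-3.08 ± 0.43), and the peptide transporter Tap2 (-1.92 ± 0.40) were lower, and Ifitm1, an interferon-induced membrane protein of early germ cells, was 6.47-fold higher (2.69 ± 0.33, adjusted p = 0.000288). Class I genes are alike in sequence, so their probes may share signal.

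Several metabolic lists had more members higher than lower in 2i/LIF. In the list of choline, betaine and the methionine cycle, which supply methyl groups, 8 of 27 rose and none fell (median 0.40; 6 and 0 without replicate 3). Dmgdh, which oxidises dimethylglycine in mitochondria, was at 2.98, 2.27, 1.83, 2.50 and 2.73 in 2i/LIF and -2.55, -1.32 and -4.34 in KOSR/LIF. The faint array was the lowest, and the rise of 5.20 ± 0.57 (adjusted p = 0.000157) was 4.40 without it. Bhmt2, a homocysteine methyltransferase, was at 2.34, 1.88, 1.00, 2.13 and 2.44 against -2.97, -1.34 and -3.14 and rose (4.44 ± 0.44, adjusted p = 8e-05). Tdh, threonine dehydrogenase, the enzyme on which mouse ES cells depend for one-carbon units, was at 8.01, 6.83, 8.17, 8.37 and 7.73 against 5.46, 4.69 and 4.97. Tdh was 6.91-fold higher (2.79 ± 0.34, adjusted p = 0.000264), and the serum/LIF arrays lay at 7.69, 7.44 and 7.30. Of 32 genes of the amino acid response run by ATF4, 9 rose and none fell (5 and 0 without replicate 3): Cbs (2.42 ± 0.31, adjusted p = 0.00036) and Cth (2.12 ± 0.35, adjusted p = 0.002), which turn homocysteine into cysteine, Nupr1, a stress-induced chromatin protein (2.12 ± 0.39, adjusted p = 0.0034), and Asns, asparagine synthetase, at 7.78, 7.74, 7.81, 7.99 and 7.68 against 6.34, 6.59 and 6.13 (1.45 ± 0.19, adjusted p = 0.000499).

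A smaller share of lipid genes rose. Of 37 genes of cholesterol synthesis and sterol regulation 5 rose and none fell (4 and 0 without replicate 3). The share called was 13.5%, against 14.7% of all genes. Abcg1, a cholesterol exporter, was at 2.29, 2.33, 2.22, 2.37 and 1.77 against -1.82, -1.23 and -1.30. Its values were tight in both media, and it was 12.5-fold higher in 2i/LIF (3.65 ± 0.23, adjusted p = 1.28e-05). In fatty acid synthesis and desaturation 5 of 27 rose and 2 fell (4 and 2 without replicate 3): the elongase Elovl7 (2.60 ± 0.36, adjusted p = 0.000652) and the desaturase Scd1 (2.23 ± 0.40, adjusted p = 0.00282) rose and Fads3, a desaturase-like gene (-3.15 ± 0.52, adjusted p = 0.00172), fell. Of 28 genes of fatty acid oxidation 2 fell and none rose, namely Cpt2, of the carnitine shuttle (-0.75), and Fabp5, a fatty acid binding protein (-1.49). This was 7.14% of the list, below the 14.7% called among all genes. Genes controlled by NRF2, a transcription factor that responds to oxidative stress, and of glutathione rose in 12 of 30 cases and fell in 1 (median 0.65). Without the faint array only 6 rose (median 0.37). Gsta3, a glutathione transferase, was at 3.16, 2.06, 3.18, 3.11 and 3.36 against 0.09, -0.30 and -1.20 (3.44 ± 0.37, adjusted p = 0.000137). Gstm3 rose (2.63 ± 0.46, adjusted p = 0.00276), and Gsta2 (2.79 ± 0.63, adjusted p = 0.0111) was lost without replicate 3 (adjusted p = 0.0575); these families are alike in sequence and their probes may share signal. Mgst1, a membrane-bound transferase, went the other way (-4.30 ± 0.57, adjusted p = 0.000499). Among 22 selenoproteins 2 rose and 1 fell: Gpx2, a glutathione peroxidase of epithelia, was at 4.50, 3.23, 4.74, 5.70 and 3.30 against 1.49, 0.22 and -0.54 (3.90 ± 0.57, adjusted p = 0.000885), while Selenop, the selenium carrier, was at -2.73, -2.79, -2.67, -1.51 and -4.10 against 0.22, 0.26 and 0.88 (-3.21 ± 0.47, adjusted p = 0.000877). The other that rose was Dio3, a deiodinase that inactivates thyroid hormone and is itself imprinted (2.93 ± 0.68, adjusted p = 0.0134). Of the selenoproteins 13.6% were called, about the 14.7% of all genes.

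Some hypoxia genes were lower in 2i/LIF. Of 24 hypoxia targets 8 fell and none rose (median -0.56; 6 fell without replicate 3). Adm, adrenomedullin (-2.62 ± 0.57, adjusted p = 0.00897), P4ha2, a collagen prolyl hydroxylase (-2.45 ± 0.41, adjusted p = 0.00188), and Pdk1, which restrains the oxidation of pyruvate in mitochondria (-2.36 ± 0.50, adjusted p = 0.00782), fell. In glucose transport and glycolysis 4 of 28 fell and 2 rose (3 and 2 without replicate 3), and the median of -0.21 was 0.23 within slide 1. The share called was 21.4%, against 14.7% of all genes. Within slide 1, where 2 fell and 1 rose, it was 10.7%, against 12.7% of all genes. The glucose transporter gene Slc2a1 was at 5.32, 3.84, 5.49, 5.24 and 4.71 against 6.84, 6.57 and 6.83. It fell (-1.83 ± 0.34, adjusted p = 0.00386); Slc16a3, a lactate exporter, lost its call without the faint array (adjusted p = 0.134), and hexokinase 1, Hk1, rose (1.77 ± 0.27, adjusted p = 0.00123). Iron genes fell in 6 of 21 cases and none rose (5 without replicate 3), among them the ferrireductase genes Steap2 (-2.91 ± 0.41, adjusted p = 0.00071) and Steap1 (-2.67 ± 0.50, adjusted p = 0.00393) and the transferrin receptor 2 gene Tfr2 (-2.48 ± 0.39, adjusted p = 0.00138). Metal genes split. The metallothioneins, which bind zinc and copper, rose: Mt1 was at 8.23, 8.23, 9.27, 9.35 and 8.34 against 6.84, 6.49 and 4.87 (2.62 ± 0.48, adjusted p = 0.0033) and Mt2 rose (1.77 ± 0.32, adjusted p = 0.00336). The zinc exporter gene Slc30a2 rose too (2.01 ± 0.36, adjusted p = 0.00291), while the importers Slc39a14 (-4.94 ± 0.61, adjusted p = 0.000327) and Slc39a8, which was not well above background on any 2i/LIF array and was at least 5.1-fold lower (adjusted p = 0.000499), fell. Over the metal list 5 of 17 rose and 3 fell, with and without the faint array. Of 19 targets of glucocorticoid and thyroid hormones 5 rose and 1 fell (4 and 1 without replicate 3): Sgk1, a kinase induced by glucocorticoids, rose (1.82 ± 0.29, adjusted p = 0.00144), and Pck1, a gluconeogenic enzyme, was at least 1.87-fold lower (adjusted p = 0.00922).

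Cell cycle regulators moved both ways. Of 30 G1 cyclins, CDK inhibitors and Myc genes 4 rose and 5 fell. Cdkn1a, the CDK inhibitor p21 and a p53 target, was at 4.39, 4.54, 4.20, 4.39 and 4.22 in 2i/LIF and 2.05, 2.42 and 2.39 in KOSR/LIF. It rose 4.18-fold (2.06 ± 0.20, adjusted p = 6.58e-05), and the value was 2.11 without the faint array and 2.06 within slide 1. Cdkn1c, the imprinted inhibitor p57, fell (-1.93 ± 0.37, adjusted p = 0.00419). Over 26 p53 targets 3 rose and 2 fell: Tigar (1.38) and Gdf15 (1.65) rose beside Cdkn1a, while the cell death genes Pmaip1 (-2.50) and Perp (-1.64) fell. In the Notch list 6 of 21 fell and 3 rose (4 and 3 without replicate 3): Dtx4 (-2.41 ± 0.43, adjusted p = 0.00278) and the glycosyltransferase Mfng (-1.60 ± 0.28, adjusted p = 0.0027) fell and the ligand Jag1 rose (1.74 ± 0.26, adjusted p = 0.000877), while the ligand Dll1 was called with the faint array only (adjusted p = 0.0762 without it). Housekeeping lists held few calls: 1 of 43 subunits of oxidative phosphorylation, Cox6b1, rose (1.11) and lost its call without replicate 3 (adjusted p = 0.127), none fell, and limma called 0 of 42 cytosolic ribosomal proteins, of which 1 had an unadjusted p below 0.05. The median change of the ribosomal genes was 0.01, with 21 of 42 above 0, whereas within slide 1 it was 0.35, with 40 of 42 above 0 and a median of 0.03 over all genes.

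Of the 6 highest and 6 lowest genes by the naming rule, 6 are not described above. Pkdcc, a secreted tyrosine kinase of skeletal development, had the lowest change, with levels of -4.10, -1.77, -5.31, -6.56 and -2.78 in 2i/LIF, 3.00, 3.45 and 2.54 in KOSR/LIF and 3.36, 2.84 and 2.89 in serum/LIF. The 2i/LIF arrays spread over more than 4 log2 units, replicate 2 highest, and none approached KOSR/LIF (-7.10 ± 0.86, adjusted p = 0.00027). Zfp618, a zinc finger protein, was at -4.63, -5.61, -4.29, -6.20 and -4.87 against 0.08, 0.94 and 0.26 (-5.54 ± 0.40, adjusted p = 1.45e-05). Among the genes that rose, Pglyrp1, which recognises bacterial peptidoglycan, was at 2.03, 1.23, 3.85, 3.24 and 1.54 against -4.65, -4.03 and -2.80 (6.20 ± 0.62, adjusted p = 8.63e-05), with 1 of 3 KOSR/LIF arrays well above background. No KOSR/LIF array measured the other 3. Cnga4, a subunit of the olfactory cyclic nucleotide-gated channel, was at 1.82, -1.51, 0.25, 0.92 and 1.08 in 2i/LIF and at least 19.7-fold higher there (adjusted p = 0.000176). Pla2g4e, a cytosolic phospholipase, was at -0.35, -0.44, 0.30, 0.74 and -0.43 and at least 13.5-fold higher (adjusted p = 3.26e-05), and Ccbe1, a secreted factor of lymphatic growth, at -0.71, -0.69, -0.49, -0.34 and -1.39 and at least 8.36-fold higher (adjusted p = 5.2e-05). Without the faint array, whose lowest measured signal is high, these bounds were 32.2, 22 and 13.7. Cnga4 and Ccbe1 were not well above background on any serum/LIF array either and entered the test through 2i/LIF only. Their p-values are therefore no separate evidence of a difference. With dim signals raised as above, the changes were 4.30 for Cnga4, 3.75 for Pla2g4e and 3.06 for Ccbe1, so their rank rests in part on signals near background.

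Calls near the threshold also rested on other single arrays. Without KOSR/LIF replicate 1 the adjusted p rose to 0.0725 for Myc, 0.121 for Dusp9, 0.0619 for Stra8, 0.0566 for Dio3, 0.133 for Sox17, 0.139 for Pdgfra and 0.0688 for Dnmt3a. Without KOSR/LIF replicate 2 it was 0.124 for Dusp9, 0.0822 for Cfc1, 0.0624 for Esx1, 0.0553 for Stra8, 0.0516 for Foxa1, 0.0795 for Sox17, 0.11 for Pdgfra and 0.073 for Dnmt3a. Sox17 also lost its call without 2i/LIF replicate 1, 2, 3 or 4 (adjusted p = 0.0578, 0.0546, 0.0511 and 0.0688), Pdgfra without 2, 3, 4 or 5 (0.0623, 0.0606, 0.0615 and 0.0502), and Dusp9 without 2 (0.0628). All of these kept their direction. Within slide 1, calls were also lost for Tspan1 (adjusted p = 0.158), Spink1 (0.131), Scd1 (0.11), Myc (0.0885), Magea4 (0.128), Dio3 (0.149), Nfe2 (0.109), Csrp1 (0.119), Fgf3 (0.0646), Fgf4 (0.0511), Gstm3 (0.0521), Hk1 (0.0637), Dusp9 (0.0501), Nnat (0.053), Cpt2 (0.0589), Perp (0.0815) and Tigar (0.0584), each with its direction kept. Of the genes whose call was lost without the faint array, Cbx8, Foxd3, Gsta2, Id2, Lef1, Otx2, Rarb, Slc16a3, Sox2 and Tnfrsf19 were not called within slide 1 either. Of the 167 called genes named by the rule or chosen for description, the difference between the 2 arrays of the second scan day was smaller than the whole by over 1.5 times for 49 and larger by over 1.5 times for 17. It was -1.64 for Hand1 (-6.01 within slide 1), -0.94 for Pdgfra (-4.43), -0.58 for Runx1 (-3.74), -0.98 for Esx1 (-4.22), -0.68 for Steap1 (-3.38) and -1.62 for Col4a1 (-6.44), and Gata6 was the only one of the 167 with the opposite sign (0.12).

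Several calls on named genes that were lost without the faint array stood in the authors' deposited table, where Tnfrsf19 (adjusted p = 0.0471), Id2 (0.0147), Hoxb8 (0.0185), Gsta2 (0.0187), Dll1 (0.0265) and Rarb (0.0202) passed and Foxd3 (0.101) and Slc16a3 (0.146) did not. In the other direction, the table did not call Cfc1 (1.96, adjusted p = 0.0617), Pck1 (-1.69, adjusted p = 0.12) or Jag1 (1.02, adjusted p = 0.0511). For the lists, the naive genes had 10 higher and 1 lower, the formative genes 1 and 16, the primitive endoderm genes 1 and 18, and the NRF2 and glutathione genes 12 and 1 in that table.

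Signals near background bear on many of the genes that were low in 1 medium. In 2i/LIF, 1 of 5 arrays was well above background for Hoxb8, Psmb8 and Pax6, and 2 of 5 for Cnn1, Cubn, Tdrd5, Stra6, H2-M3, Fads3, Mgst1, Dll1, Foxa1, Esam, Runx1, Zfp618, Acta1, Pdgfra and Sox11. The number was 3 of 5 for Gata6, Fgf15, Ccnd2, Pkdcc, Rarb and Sox17, and 4 of 5 for Cdx2, Myc, Dusp4, Fgf1, Col4a1, Dlk1, Tfr2, Slc39a14, Itga9 and Spink1. In KOSR/LIF, 2 of 3 arrays were well above background for Gata6, Cdx2, Fgf3, Sp5, Dab2, Tspan1, Tfap2a, Tdrd12, Magea4, Hoxb8, Hoxc13, Psmb8, Tap2, Dmgdh, Bhmt2, Fads3, Gsta2, Dio3, Cldn4, Gsc, Runx1, Nfe2, Sox17 and Pdgfra. The fitted changes of these genes rest in part on signals that the scanner software did not count as measured. Hoxb5 was well above background in KOSR/LIF only and entered the test through that medium, so its p-value is no separate evidence of a difference. The same holds for Sox7, Aldh1a7, Pck1, Hoxb2 and Hoxb8, which met the filter of at least 3 arrays only with their KOSR/LIF arrays. It holds as well for Aldh1a3 and Magea4, which met the filter only with their 2i/LIF arrays. For Axin2, Tnfrsf19, Fgf1, Fgfr3, Sox17, Pxdn and Zfp618, only 1 of 2 probes was called when each probe was tested by itself.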

How the data were processed

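Total RNA of mouse ES cells was labelled with Cy3 and hybridised to one-colour Agilent arrays, 1 sample an array. Per the file headers, the deposited scanner files were written by Agilent Feature Extraction 11.0.1.1, whose processed signal is a background-corrected intensity on a linear scale. The authors' deposited value table, for which the sources used here name no method, was used as an alternative only. Its values were read as linear intensities, since their log2 ran along the log2 scanner values with a slope of 0.87 to 0.94, and the part of the authors' processing that compressed them is unknown. Its column medians over the genes tested were 387, 393 and 399 for serum/LIF, 375, 376, 368, 383 and 378 for 2i/LIF and 401, 383 and 390 for KOSR/LIF, so the columns had been brought to a like level by a method that is not known; the values are not ratios and have no direction to settle. Each of its columns was set against all 11 scanner files. Spots of a probe were averaged after control spots and flagged outliers were left out, log2 was taken, and each array's 75th percentile was subtracted. Of 55681 probes, 27642 were named through RefSeq accessions. Probes were kept where at least 3 of 11 arrays were well above background, and the brightest probe stood for its gene. limma 3.58.1 in R 4.3.3 fitted 1 coefficient for each of the 3 media over all 11 arrays (8 residual degrees of freedom), with two-sided moderated tests and Benjamini-Hochberg adjustment over 16279 genes. The script was tested on simulated data. The number of arrays limits the precision of every value.

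The gene lists and the naming rule were chosen with earlier results of these data known. The rule named 12 genes whatever their result, up to 3 members with the largest change in the main direction and 1 in the other from each list with at least 4 called members that made up at least 1 in 5 of those measured, and the 6 highest and 6 lowest genes that were called with and without KOSR/LIF replicate 3 and did not overlap between media. Genes chosen after their values were seen were Acta1, Myl9, Cyp26a1, Rarb, Gata4, Sox17, Lrp2, Pou3f1, Klf2, Cdh1, Ddx4, Abcg1, Fgf4, Sox7, Pdgfra, Piwil2, Gpx2, Selenop, Asns, Dnmt3a, Fgfr3, Slc39a8, Sox11, Pax6, Otx2, Lef1, Aldh1a2, Hoxa2, Hoxa3, Hoxa4, Thy1, Lum, Vim, Rbm44, Cpt2, Fabp5, Tigar, Gdf15, Pmaip1, Perp, Cbx6, Cbx8, Jarid2, Phf19, Pcgf5, Cox6b1, Meox1, Etv5, Ccnd1 and the 3 families of promoter windows. Some named genes are not reported here. Upstream windows came from RefSeq's table on GRCm38.p6. Alternatives covered background correction, scaling, filters, probe choice, weights, blocks for slide, scan day, cell line and replicate number, leaving out arrays, and the deposited table, of which the version without its KOSR/LIF 3 column was chosen after seeing the data. The planned normexp correction used the median in place of the mean foreground signal.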

Additional observations from a re-analysis of the deposited data

Results flagged for a closer look

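Among the 5 2i/LIF arrays, 1 array stood apart from the other 4 for 9 of the 159 genes checked, by Dixon's gap test at the 95% level. Chance flags about 1 in 20 groups. For 7 of the 9 that array was replicate 2, which was scanned on the same day as the faint KOSR/LIF array. It was the highest for Acta2 (0.05), Hand1 (-5.16) and Piwil2 (-2.86), and the lowest for Dnmt3l (-0.43), Gsta3 (2.06), Il6ra (0.91) and Myc (-4.09). The other 4 arrays lay from -3.40 to -2.56 for Acta2, from 2.05 to 2.63 for Dnmt3l and from -1.95 to -1.34 for Myc. Replicate 4 was the lowest for Ccnd2 (-5.21), and replicate 5 for Abcg1 (1.77). In each case the array lay on the same side of all KOSR/LIF arrays as the other 2i/LIF arrays, and the part of the scan day was not tested.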

How the results depend on the processing

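The count of 2388 called genes was 1512 with normexp background correction, 4134 with array weights, which gave KOSR/LIF replicate 1 a weight of 4.67 and the faint replicate 3 one of 0.161, and 1408 with the replicate number as a block. The calls split into 689 higher and 823 lower with normexp, 1770 and 2364 with array weights, 489 and 919 with the block, and 1046 and 1076 with the stricter filter on dim probes. Leaving out 1 array at a time gave 1759 to 2593 calls, 684 to 1077 higher and 1060 to 1516 lower. In the authors' deposited table without its KOSR/LIF 3 column, an alternative chosen after seeing the data, the calls were 2060, with 743 higher and 1317 lower. Same-numbered samples of the media did not deviate together (correlations of 0.043, 0.017 and -0.056), so the numbers do not pair them and the block is no measure of the effect. The median change of all genes moved to -0.151 without a filter on dim probes.

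Some list medians turned sign. They were 0.05 for general pluripotency with slide as a block or within slide 1, 0.17 for the ERK immediate early genes with the stricter filter, -0.03 for the Wnt targets without a filter, -0.15 for the BMP list with normexp and 0.02 for the Nodal list without KOSR/LIF replicate 2 (-0.38 to 0.02 over single arrays left out). The Hox median was -0.37 without a filter, -0.31 with the stricter one, -0.59 within slide 1 and -0.31 without 2i/LIF replicates 1 and 5. Glycolysis had 0.24 with slide as a block and 0.23 within slide 1, and the glucocorticoid and thyroid list 0.07 without 2i/LIF replicate 2 (-0.09 to 0.07). The epithelial median was -0.06 with array weights, -0.08 without KOSR/LIF replicate 3 (-0.08 to 0.43) and -0.07 in the deposited table without its KOSR/LIF 3 column. The blood and endothelial median was 0.51 with the stricter filter, 0.02 within slide 1, 0.08 without KOSR/LIF replicate 3 (-0.62 to 0.08) and 0.07 in that reduced table, where the median of the G1 cyclin list was -0.00. The cause of these shifts was not tested. Averaging the probes of a gene turned Nanog to -0.21 (limma, adjusted p = 0.889).

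Of the 172 named genes, 149 stayed on the same side of the threshold with normexp, 141 with the replicate block, 147 within slide 1, 164 in the deposited table and 155 to 167 when 1 array was left out. Among those called, only Nanog turned sign under a setting that was run; of those not called, Hhex did so under 5 settings (-0.08 without KOSR/LIF replicate 3, -0.36 within slide 1) and Dnmt3b with slide as a block. Precision is limited by the 3 KOSR/LIF arrays, 1 of them faint and of unsettled identity, and for low genes by signals near background.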
